A study of Mus musculus with 13 samples.

Results

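The nuclear receptor superfamily of transcription factors was followed in mouse liver through 31 genes, taken by symbol from a table of 54532 genes. The genes encode the receptors of bile acids, oxysterols and foreign compounds (Nr1h4, Nr1h3, Nr1h2, Nr1i2, Nr1i3), the retinoid X receptors (Rxra, Rxrb, Rxrg), the receptors of retinoic acid, thyroid hormone and vitamin D (Rara, Rarb, Rarg, Thra, Thrb, Vdr), the peroxisome proliferator-activated receptors (Ppara, Ppard, Pparg), steroid and estrogen-related receptors (Esr1, Esrra, Nr3c2), orphan receptors (Nr0b2, Nr2f1, Nr2f2, Nr2f6, Nr2c1, Nr2c2, Rora, Nr6a1) and the NR4A receptors (Nr4a1, Nr4a2, Nr4a3). All 31 symbols were found, and 30 passed the filter on low counts. Vdr, the vitamin D receptor, had 0 to 3 counts per library and was not tested.

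RNA was sequenced from livers of wild-type C57 BL6 mice aged 8 weeks. In 4 livers 16,16-dimethyl prostaglandin E2 (dmPGE2), a stable analogue of prostaglandin E2, was injected at 300 µg/kg 1 h before D-galactosamine at 500 mg/kg and lipopolysaccharide at 5 µg/kg (dmPGE2 before GalN/LPS, here pretreated). There were 3 livers with the same D-galactosamine and lipopolysaccharide doses and no dmPGE2 (GalN/LPS), 3 with dmPGE2 at 300 µg/kg alone, and 3 with saline. Livers were taken 6 h after GalN/LPS; for dmPGE2 alone the labels give 6 h and no separate interval, so its time after dmPGE2 may differ from that of the pretreated livers. D-galactosamine with a low dose of lipopolysaccharide is a model of acute liver failure in which galactosamine traps uridine nucleotides in hepatocytes and so limits their RNA synthesis. Injections were intraperitoneal, and nothing states that each library came from its own animal, so the p-values measure the spread between these samples.

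Nuclear receptors bind DNA through a zinc-finger domain and change transcription when a ligand alters which coactivators or corepressors they hold. In hepatocytes many of them pair with a retinoid X receptor and sense products of metabolism: FXR (Nr1h4) bile acids, LXR (Nr1h3, Nr1h2) oxysterols, PPAR alpha (Ppara) fatty acids, and PXR and CAR (Nr1i2, Nr1i3) drugs and steroids. The NR4A receptors differ in that their ligand pocket is filled by amino acid side chains, and their activity is set mostly by how much of them is made, as immediate early genes.

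Libraries held 16910816 to 17649675 counts in pretreated, 16575171 to 17709049 in GalN/LPS, 14829838 to 20777809 in dmPGE2 and 17018104 to 18425824 in saline livers. The TMM scaling factors of the libraries were 0.683 to 0.83 in pretreated, 0.904 to 1.14 in GalN/LPS, 1.16 to 1.28 in dmPGE2 and 1.17 to 1.18 in saline livers. With library totals in place of these factors, the median log2 fold change of all tested genes moved to -0.61 for pretreated against GalN/LPS livers, against -0.10 with TMM, and to -0.15 for GalN/LPS against saline livers, against 0.03 with TMM. Where this choice changed a receptor's call between groups, the value with library totals is given beside it. Levels of 1 gene are given as TMM-scaled CPM, levels of different genes are compared per length as FPKM, and differences are log2 fold changes ± standard error (SE) from 1 edgeR quasi-likelihood fit over the 14280 genes that passed the filter, called at an adjusted p of 0.05.

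The hepatocyte identity of the tissue stood in every group: the 7 hepatocyte markers in the table summed to 138858 to 216514 CPM in pretreated, 90548 to 129357 in GalN/LPS, 67829 to 77559 in dmPGE2 and 88015 to 104001 in saline livers, and none was at 0. None of the 7 was called in GalN/LPS against saline livers (1 was lower with library totals). With pretreatment 6 of 7 rose relative to GalN/LPS alone, with a list median of 0.72 (2 of 7 with library totals), and 7 of 7 were higher than in saline livers (1 of 7 with library totals). Albumin (Alb) gave 0.27 ± 0.26 for GalN/LPS against saline, not called, and 0.72 ± 0.25, adjusted p = 0.0246 for pretreated against GalN/LPS livers. Markers of other liver cells moved with the injury. The 8 neutrophil markers summed to 267 to 422 CPM in pretreated, 696 to 923 in GalN/LPS, 5.23 to 8.94 in dmPGE2 and 4.43 to 16.1 in saline livers. The 8 Kupffer cell and macrophage markers summed to 257 to 409 CPM in pretreated, 560.4 to 919 in GalN/LPS, 163 to 225 in dmPGE2 and 125 to 165 in saline livers. The 8 markers of sinusoidal endothelium summed to 135 to 293 CPM in pretreated, 467 to 602 in GalN/LPS, 77.1 to 98.1 in dmPGE2 and 68.3 to 80.3 in saline livers. Of these 3 lists, 8, 7 and 8 of 8 genes were higher in GalN/LPS than in saline livers, and with pretreatment 8 of 8 of each fell relative to GalN/LPS alone. The stellate cell, cholangiocyte, and T, NK and B cell lists also gained calls: 6 of 8, 5 of 5 and 5 of 7 tested genes were higher in GalN/LPS than in saline livers, and 6, 3 and 5 of them fell with pretreatment. None of the markers of these lists was at 0 over a group. Over all genes 27.4% were higher and 25.6% lower in GalN/LPS than in saline livers. With pretreatment 24.4% rose and 30.1% fell relative to GalN/LPS alone, and 34.8% were higher than in saline livers. With library totals 616 of the 14280 genes rose with pretreatment and 1683 were higher than in saline livers. In bulk tissue fewer cells of a type and less RNA per cell cannot be told apart, and the part of these cells in the results below was not tested.

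Per length, the receptors of metabolism led the family in uninjured liver. In saline livers FXR (Nr1h4) stood at 61.0 ± 10.2 FPKM and Rxra at 59.1 ± 8.86 FPKM (mean ± SD, n = 3), and these neighbours did not differ beyond their spread. LXR alpha (Nr1h3) followed at 37.2 ± 3.54 FPKM, PXR (Nr1i2) at 25.4 ± 6.22 FPKM, Nr2f6 at 18.9 ± 0.983 FPKM, Esrra at 17.6 ± 1.62 FPKM, Nr0b2 at 15.5 ± 8.93 FPKM and Ppara at 10.7 ± 2.88 FPKM. The gaps between Rxra, Nr1h3 and Nr1i2 exceeded the SDs, while neighbours from Nr1i2 down to Ppara overlapped within 1 SD, and Nr0b2 spread most relative to its mean, from 5.78 to 23.4 FPKM. The order was different in injured liver. In GalN/LPS livers Nr4a1 had rank 3 of the 31 by mean FPKM, at 15.3 ± 5.03 FPKM, against rank 25 and 0.261 ± 0.129 FPKM in saline livers. Nr1h4 fell to 9.74 ± 0.809 FPKM and Rxra to 12.7 ± 1.88 FPKM in GalN/LPS livers.

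GalN/LPS lowered more of the family than it raised. Of the 30 tested genes, 16 were lower in GalN/LPS than in saline livers and 7 were higher, and 7 were not called; over all 14280 genes the shares were 25.6% lower and 27.4% higher. The median log2 fold change of the family was -0.52, against 0.03 over all genes. The largest falls were in Nr0b2, Rxrg, Nr1h4, Nr3c2, Thrb, Rxra and Esr1, at -3.51 to -2.13, and the largest rises were in Nr4a3, Nr4a1 and Nr4a2. With library totals 17 were lower and 6 higher, against 4277 lower and 3067 higher of the 14280 genes.

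dmPGE2 given before GalN/LPS lowered 11 of the 30 genes relative to GalN/LPS alone and raised 4; the shares over all genes were 30.1% lower and 24.4% higher. The median of the family was 0.05, against -0.10 over all genes. The largest falls were in Nr4a3, Nr4a1, Ppard and Nr4a2, at -4.00 to -1.51, and Nr1h4, Nr1i2, Thrb and Esr1 were the 4 that rose. With library totals none of these 4 rises was called and 14 of the 30 genes were lower. Over all 14280 genes, library totals called 616 higher and 6804 lower, so the share of higher calls depended on the scaling. Without GalN/LPS library 2, 7 genes were called higher.

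**Figure D1:**
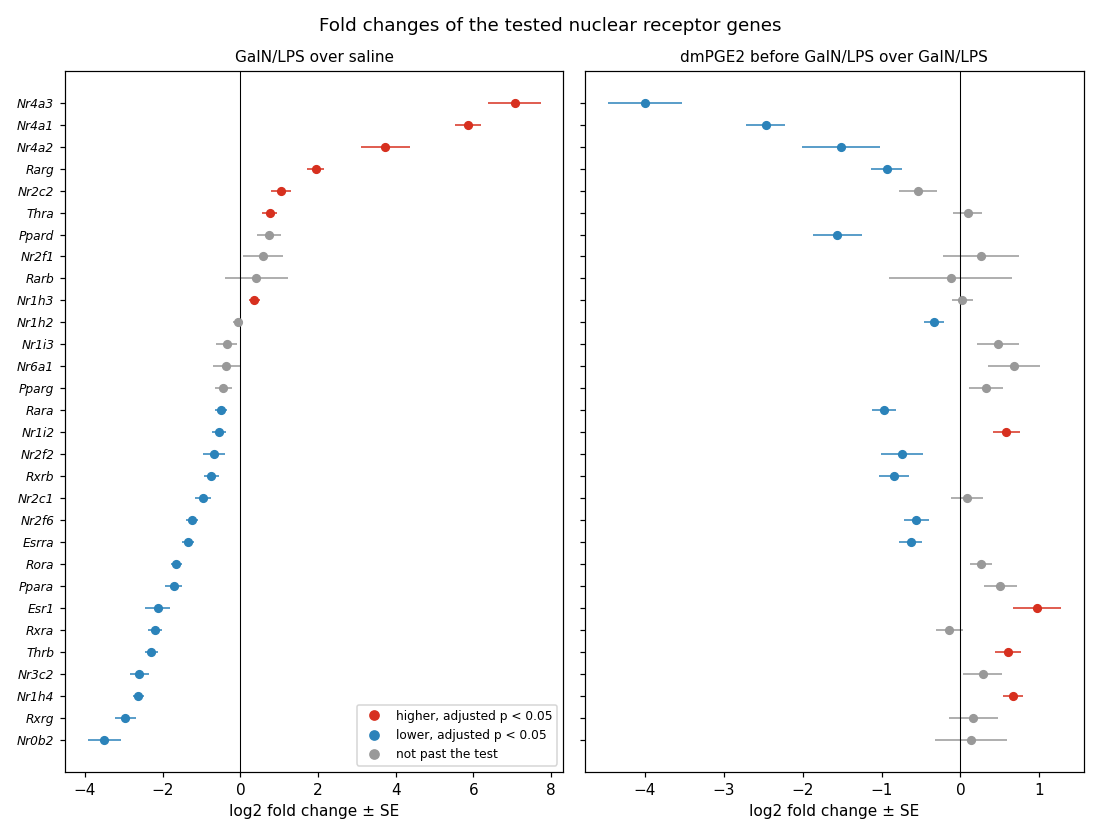
Log2 fold change ± SE of each of the 30 tested nuclear receptor genes, in GalN/LPS over saline livers (left) and in pretreated over GalN/LPS livers (right); red marks higher calls, blue lower calls and grey genes not called. The NR4A genes at the top lie far to the right on the left panel, at 3.73 to 7.06, and to the left on the right panel, at -4.00 to -1.51.

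Among the receptors of bile acids, oxysterols and foreign compounds, Nr1h4 (ENSMUSG00000047638, chromosome 10) was the one with a large fall. It encodes FXR, which bile acids activate and which shuts down their synthesis. Its level was 35.6, 31.4, 35.9 and 38.9 CPM in pretreated livers, 23.6, 22.6 and 20.5 CPM in GalN/LPS livers, 134, 133 and 143 CPM in dmPGE2 livers and 141, 159 and 115 CPM in saline livers. Every GalN/LPS library lay below every pretreated one, and every pretreated one far below the uninjured livers. The log2 fold change was -2.63 ± 0.14 for GalN/LPS against saline (adjusted p = 6.92e-10), 0.67 ± 0.13 for pretreated against GalN/LPS (adjusted p = 0.000628) and -1.96 ± 0.13 for pretreated against saline (adjusted p = 5.71e-09). With library totals the rise over GalN/LPS was 0.15 and was not called.

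PXR (Nr1i2), the sensor of drugs and steroids that induces Cyp3a genes, had 75.6, 54.4, 68.5 and 63.9 CPM in pretreated livers, 43.7, 51.3 and 36.7 CPM in GalN/LPS livers, 42.0, 37.4 and 47.0 CPM in dmPGE2 livers and 50.2, 60.0 and 81.7 CPM in saline livers. The pretreated libraries lay above all GalN/LPS ones and the dmPGE2 libraries below all saline ones, while GalN/LPS and saline overlapped by 1 library. Against saline, GalN/LPS gave -0.54 ± 0.18, adjusted p = 0.0184, a call that was lost without saline library 3 (-0.33) or GalN/LPS library 3 (-0.42). Pretreated against GalN/LPS gave 0.58 ± 0.17, adjusted p = 0.0101; this was 0.07 with library totals and was lost without GalN/LPS library 3, at 0.47. Pretreated against saline livers was not called, and with library totals it was called lower at -0.65. Its relative CAR (Nr1i3) was not called in any comparison of these groups, with 10.9, 15, 23.3 and 23.0 CPM in pretreated livers against 15.2, 14.6 and 9.17 CPM in GalN/LPS livers, and 14.9, 12.5 and 14.3 CPM in dmPGE2 against 20.0, 18.9 and 11 CPM in saline livers; with pretreatment it was called higher without pretreated library 1 (0.65), and with GalN/LPS it was called lower with no filter (-0.49). Nr1i3 overlaps Tomm40l on the opposite strand (3600 against 1234 counts).

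The LXRs, which sense oxysterols and turn on cholesterol efflux and lipogenesis, kept to a narrower range. Nr1h3 had 143, 120.2, 112 and 104 CPM in pretreated livers, 104, 119 and 131 CPM in GalN/LPS livers, 87.8, 93.7 and 100.1 CPM in dmPGE2 livers and 89.9, 84.0 and 102 CPM in saline livers. The injured livers stood above all saline libraries, with 0.36 ± 0.14, adjusted p = 0.043 for GalN/LPS and 0.38 ± 0.13, adjusted p = 0.0202 for pretreated livers against saline; with library totals these were 0.19 and -0.30, and neither was called. Both calls were also lost with no filter, with only the groups compared and without single libraries. Pretreated against GalN/LPS livers gave 0.02 ± 0.13, adjusted p = 0.901, and with library totals it was called lower at -0.49. Nr1h2 was not called in GalN/LPS against saline livers (-0.07 ± 0.13) and fell with pretreatment (-0.34 ± 0.13, adjusted p = 0.0331), with no overlap between 24.8, 25.4, 23.4 and 22.8 CPM in pretreated and 32.8, 28.5 and 30.0 CPM in GalN/LPS livers. That call was lost with no filter (adjusted p = 0.0867), with only the groups compared (adjusted p = 0.054), and when GalN/LPS library 1 or 3, or pretreated library 3 or 4, was left out.

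All 3 retinoid X receptors, the common partners of the receptors above, fell in GalN/LPS livers and none of the 3 rose with pretreatment. Over all genes 25.6% fell with GalN/LPS and 24.4% rose with pretreatment. Rxra had 71.9, 75.0, 47.4 and 55.9 CPM in pretreated livers, 56.3, 81.5 and 69.4 CPM in GalN/LPS livers, 340.1, 343 and 358 CPM in dmPGE2 livers and 368, 274 and 311 CPM in saline livers. The injured groups overlapped each other and lay far below the uninjured ones, at -2.20 ± 0.19, adjusted p = 1.11e-07 for GalN/LPS and -2.34 ± 0.17, adjusted p = 2.46e-08 for pretreated livers against saline. Pretreated against GalN/LPS was -0.14 ± 0.17, adjusted p = 0.497, and with library totals it was called lower at -0.62. Rxrg, the least abundant, had 0.635, 0.547, 1.17 and 0.846 CPM in pretreated, 0.743, 0.819 and 0.563 CPM in GalN/LPS, 5.29, 5.05 and 5.23 CPM in dmPGE2 and 5.37, 5.98 and 5.33 CPM in saline livers, -2.97 ± 0.27, adjusted p = 1.95e-07 for GalN/LPS against saline; 2 libraries had under 10 counts.

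Rxrb was graded across the groups: 11.4, 10.7, 5.92 and 7.61 CPM in pretreated, 14.0, 17.0 and 17.1 CPM in GalN/LPS, 33.2, 25.9 and 33.3 CPM in dmPGE2 and 26.5, 27.5 and 26.9 CPM in saline livers. Pretreated libraries lay below every GalN/LPS library, and these below every saline library. The log2 fold change was -0.75 ± 0.19, adjusted p = 0.00367 for GalN/LPS against saline and -0.84 ± 0.19, adjusted p = 0.00165 for pretreated against GalN/LPS. Rxra held 80.6% ± 0.73 of the family's FPKM in pretreated, 73.0% ± 1.88 in GalN/LPS, 85.7% ± 1.33 in dmPGE2 and 85.5% ± 2.15 in saline livers (SD), while the sum of the 3 was 13.7 FPKM in pretreated, 17.4 in GalN/LPS, 75.0 in dmPGE2 and 69.0 in saline livers.

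**Figure D2:**
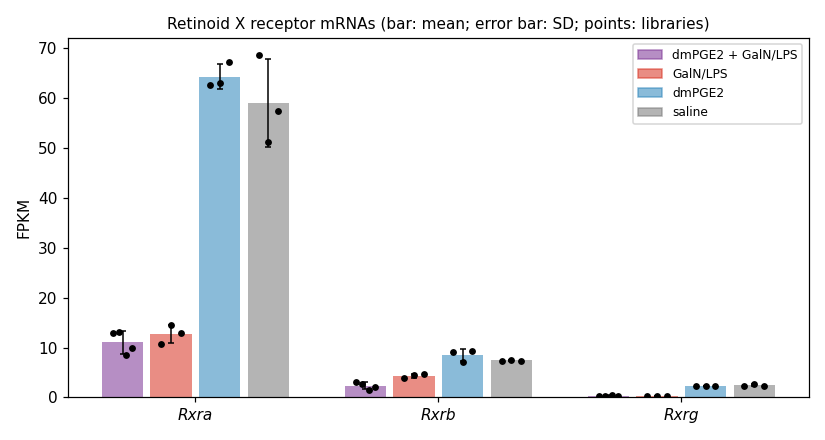
Mean FPKM of the 3 retinoid X receptors in each group, with SD as error bars and each library as a point. Rxra reaches 13.1 FPKM in pretreated and 14.4 FPKM in GalN/LPS livers at most, against at least 62.6 FPKM in dmPGE2 and 51.2 FPKM in saline livers.

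The retinoic acid receptors changed in opposite directions. Rara, the widely expressed form, had 6.35, 7.11, 7.51 and 5.84 CPM in pretreated livers, 13.9, 11.9 and 13.6 CPM in GalN/LPS livers, 15.4, 16.7 and 20.3 CPM in dmPGE2 livers and 16.1, 18.5 and 20.8 CPM in saline livers; Rarg had 4.05, 5.94, 4.75 and 5.84 CPM in pretreated livers, 10.5, 8.82 and 10.2 CPM in GalN/LPS livers, 2.74, 1.86 and 2.32 CPM in dmPGE2 livers and 2.94, 2.59 and 2.16 CPM in saline livers. GalN/LPS libraries lay above all saline libraries for Rarg and below all of them for Rara, with no overlap. The log2 fold change for GalN/LPS against saline was 1.94 ± 0.22, adjusted p = 1.75e-06 for Rarg and -0.49 ± 0.15, adjusted p = 0.0134 for Rara, the Rara call being lost without saline library 3 (-0.40). Both fell with pretreatment relative to GalN/LPS alone, with a change of -0.97 ± 0.15 for Rara (adjusted p = 0.000135) and -0.93 ± 0.19 for Rarg (adjusted p = 0.00107). Against saline, pretreated livers gave 1.00 ± 0.21 (adjusted p = 0.000582) for Rarg, which was 0.33 with library totals and not called. Rarg made up 42.3% of the summed RAR FPKM in pretreated and 42.5% in GalN/LPS livers, against 11.6% in dmPGE2 and 12.4% in saline livers. Rarb, which overlaps Top2b on the opposite strand (160 counts against 7399 for Top2b over all libraries), stayed at 0 to 1.56 CPM and was not called.

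Thyroid hormone signals in hepatocytes mainly through Thrb. Thrb had 5.40, 6.42, 5.75 and 7.02 CPM in pretreated livers, 4.57, 4.48 and 3.18 CPM in GalN/LPS livers, 20.1, 22.2 and 20.5 CPM in dmPGE2 livers and 18.8, 22.2 and 18.7 CPM in saline livers, with GalN/LPS lowest, pretreated next, and no overlap between these groups. The log2 fold change was -2.29 ± 0.17, adjusted p = 1.84e-08 against saline in GalN/LPS livers, 0.60 ± 0.17, adjusted p = 0.00688 in pretreated against GalN/LPS livers and -1.69 ± 0.15, adjusted p = 1.6e-07 in pretreated against saline livers. The rise with pretreatment was 0.09 with library totals and was not called. Thra rose in both injured groups, by 0.75 ± 0.20 (adjusted p = 0.00457) in GalN/LPS and 0.85 ± 0.19 (adjusted p = 0.00106) in pretreated livers against saline; with library totals the pretreated value was 0.16 and was not called. Thra had 10.5, 7.86, 9.59 and 7.95 CPM in pretreated livers, 6.69, 9.39 and 9.17 CPM in GalN/LPS livers, 6.64, 7.72 and 7.76 CPM in dmPGE2 livers and 5.82, 3.89 and 5.24 CPM in saline livers. It overlaps Nr1d1 on the opposite strand, which had 5818 counts against 1718 for Thra, and the sources used here do not give whether counting used strand, so reads of the pair may be mixed. Of the summed FPKM of both, Thra held 69.8% in pretreated, 76.5% in GalN/LPS, 36.1% in dmPGE2 and 28.7% in saline livers.

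**Figure D3:**
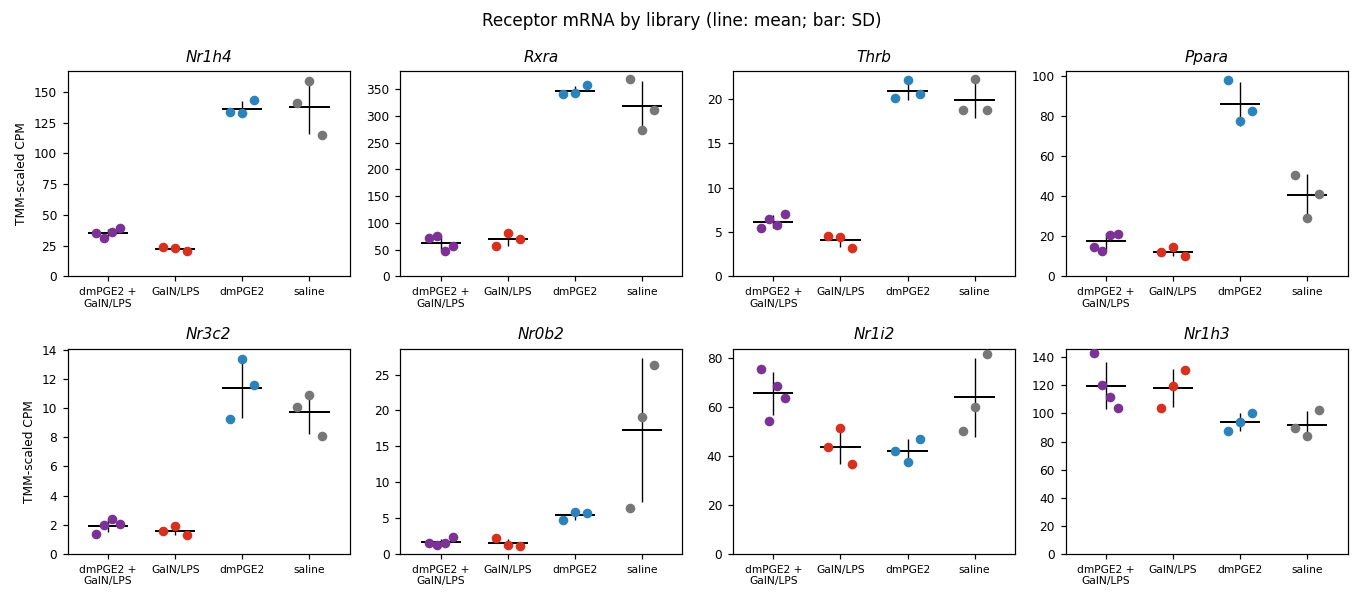
TMM-scaled CPM of 8 nuclear receptor genes in each library, by group, with the mean as a line and the SD as a bar. For Nr1h4, Rxra, Thrb, Ppara, Nr3c2 and Nr0b2 the injured groups lie below all uninjured libraries, while Nr1i2 and Nr1h3 do not follow that pattern.

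PPAR alpha (Ppara), which drives fatty acid oxidation in fasting, had 14.8, 12.8, 20.6 and 21.3 CPM in pretreated livers, 12.1, 14.6 and 10 CPM in GalN/LPS livers, 98.2, 77.5 and 82.5 CPM in dmPGE2 livers and 50.7, 29.0 and 41.3 CPM in saline livers. All dmPGE2 libraries exceeded all saline libraries, and both injured groups lay below saline, with overlap between them. It fell by 1.72 ± 0.22 (adjusted p = 9.29e-06) on the log2 scale in GalN/LPS against saline livers. Pretreated against GalN/LPS was 0.51 ± 0.21, adjusted p = 0.0552 and was not called, though it was with no filter or without some single libraries, and pretreated against saline was -1.22 ± 0.20, adjusted p = 8.17e-05. Ppard, which also acts in muscle and in macrophages, had 2.86, 3.96, 2.42 and 1.69 CPM in pretreated livers, 10.1, 6.24 and 8.09 CPM in GalN/LPS livers, 3.75, 2.32 and 5.32 CPM in dmPGE2 livers and 3.67, 4.88 and 6.15 CPM in saline livers. GalN/LPS against saline gave 0.74 ± 0.31, adjusted p = 0.0574, short of the threshold though the groups did not overlap, and called when only these groups were fitted, with DESeq2 or without some single libraries. Pretreated livers lay below GalN/LPS livers without overlap, at -1.56 ± 0.31, adjusted p = 0.000725. Against saline they were lower as well, at -0.83 ± 0.31, adjusted p = 0.0285, a call that was lost without saline library 2 or 3 or pretreated library 3 or 4. Pparg, the adipogenic receptor, was not called with TMM, but with library totals it was lower against saline in GalN/LPS (-0.61, adjusted p = 0.0446) and in pretreated livers (-0.80, adjusted p = 0.00584), and without saline library 3 it was lower in GalN/LPS livers (-0.62). It had 4.37, 5.26, 6.76 and 6.01 CPM in pretreated, 4.19, 4.60 and 4.61 CPM in GalN/LPS, 5.89, 5.40 and 5.65 CPM in dmPGE2 and 7.98, 5.78 and 4.42 CPM in saline livers.

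Of the steroid and estrogen-related receptors, Nr3c2, the mineralocorticoid receptor, had 1.35, 1.98, 2.42 and 2.03 CPM in pretreated livers, 1.59, 1.89 and 1.33 CPM in GalN/LPS livers, 9.22, 13.3 and 11.6 CPM in dmPGE2 livers and 10.1, 10.9 and 8.07 CPM in saline livers. In GalN/LPS livers it fell by 2.60 ± 0.24 (adjusted p = 2e-07), and pretreated against GalN/LPS livers was 0.28 ± 0.25, adjusted p = 0.351, with overlap. Esr1, the estrogen receptor alpha, had 13.4, 5.81, 6.26 and 7.78 CPM in pretreated livers, 3.29, 4.92 and 4.56 CPM in GalN/LPS livers, 15.6, 14.3 and 15.1 CPM in dmPGE2 livers and 15, 13 and 27.6 CPM in saline livers. It fell by 2.13 ± 0.32 (adjusted p = 3.58e-05) in GalN/LPS against saline livers and was higher in pretreated than in GalN/LPS livers by 0.97 ± 0.31 (adjusted p = 0.015) without overlap. Its saline values included 1 library (27.6 CPM) above the others, and the pretreated value included 1 of 13.4 CPM; without GalN/LPS library 1 the rise was 0.81 and without pretreated library 1 it was 0.64, neither called, and with library totals it was 0.46. Esrra, which drives mitochondrial genes together with PGC-1 alpha, fell further with pretreatment: 13.3, 11.9, 9.51 and 9.64 CPM in pretreated and 17.9, 14.9 and 18.8 CPM in GalN/LPS livers, against 45.0, 38.8 and 52.1 CPM in dmPGE2 and 41.0, 48.4 and 42.6 CPM in saline livers. The changes were -1.35 ± 0.16, adjusted p = 2.86e-06 for GalN/LPS against saline and -0.63 ± 0.15, adjusted p = 0.00273 for pretreated against GalN/LPS. Esrra overlaps Trmt112 on the opposite strand (7364 against 4436 counts).

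The orphan receptors fell in 5 of 8 cases in GalN/LPS livers and rose in 1, against 25.6% lower and 27.4% higher over all genes. Nr0b2 (SHP), which lacks a DNA-binding domain and is induced by FXR, had the largest fall of the 30 genes in GalN/LPS livers: 1.59, 1.23, 1.5 and 2.37 CPM in pretreated livers, 2.18, 1.26 and 1.08 CPM in GalN/LPS livers, 4.69, 5.80 and 5.70 CPM in dmPGE2 livers and 6.42, 19.1 and 26.3 CPM in saline livers. The saline libraries spread widely, from 6.42 to 26.3 CPM, yet stayed above all injured libraries. GalN/LPS against saline gave -3.51 ± 0.43, adjusted p = 4.54e-06, pretreated against saline -3.37 ± 0.39, adjusted p = 2.26e-06, and pretreated against GalN/LPS 0.14 ± 0.46, adjusted p = 0.816. Nr2f6 had 15.7, 15.8, 14.7 and 17.5 CPM in pretreated, 26.1, 17.6 and 26.5 CPM in GalN/LPS, 54.8, 43.4 and 61.2 CPM in dmPGE2 and 53.3, 58.6 and 54.9 CPM in saline livers, and fell in both steps (-1.24 ± 0.16 for GalN/LPS against saline, -0.56 ± 0.15 for pretreated against GalN/LPS, adjusted p = 9.09e-06 and 0.00662). Nr2f2, the COUP-TF that sets vein identity, fell by 0.68 ± 0.27 (adjusted p = 0.0456) in GalN/LPS livers and changed by -0.74 ± 0.27 (adjusted p = 0.0275) with pretreatment, and both calls were lost when single libraries were left out. Rora fell by 1.65 ± 0.15 (adjusted p = 1.72e-07) and Nr2c1 fell by 0.96 ± 0.20 (adjusted p = 0.000933) in GalN/LPS livers, and neither was called between pretreated and GalN/LPS livers, except Rora without GalN/LPS library 2 (0.38). Nr2f6 overlaps Ocel1 on the opposite strand (9243 against 1825 counts over all libraries). Nr2f1 and Nr6a1 were not called in any comparison of these groups, except that Nr6a1 was called higher with pretreatment with no filter (0.65), without GalN/LPS library 2 (0.97) or without pretreated library 1 (0.90).

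Nr2c2 (TR4) was the orphan that rose: 3.25, 3.07, 5.17 and 3.21 CPM in pretreated livers, 6.48, 5.23 and 4.30 CPM in GalN/LPS livers, 5.51, 6.5 and 6.54 CPM in dmPGE2 livers and 2.52, 1.99 and 3.27 CPM in saline livers. GalN/LPS and dmPGE2 libraries lay above all saline libraries, and pretreated library 3 stood apart from the other pretreated ones. GalN/LPS against saline was 1.04 ± 0.25, adjusted p = 0.00271, and pretreated against GalN/LPS -0.54 ± 0.24, adjusted p = 0.0649, not called but called with library totals (-1.06), with DESeq2 (-0.60) and without GalN/LPS library 3 (-0.67) or pretreated library 3 (-0.75). Nr2c2 overlaps Mrps25 on the opposite strand, which had 2908 counts against 1052 for Nr2c2 over all libraries, so its reads may be partly those of Mrps25.

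The NR4A receptors rose most. They are immediate early genes that are induced within a short time by cyclic AMP, stress and inflammatory signals, and lipopolysaccharide induces them in macrophages. Nr4a1 had 10.4, 12.9, 6.76 and 8.12 CPM in pretreated livers, 58.8, 34.9 and 65.6 CPM in GalN/LPS livers, 0.375, 0.522 and 0.380 CPM in dmPGE2 livers and 0.826, 0.498 and 1.39 CPM in saline livers. Every GalN/LPS library lay above every pretreated one, and these above every uninjured one. The log2 fold change was 5.86 ± 0.35, adjusted p = 1.69e-09 for GalN/LPS against saline, -2.47 ± 0.25, adjusted p = 6.07e-06 for pretreated against GalN/LPS and 3.39 ± 0.33, adjusted p = 4.05e-07 for pretreated against saline. The libraries of uninjured livers held 57 counts of Nr4a1 in saline and 28 in dmPGE2 livers over the group, against 2942 in GalN/LPS and 497 in pretreated livers.

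Nr4a3 had 4, 2, 6 and 4 counts in pretreated livers, 93, 66 and 125 counts in GalN/LPS livers, 2, 0 and 0 counts in dmPGE2 livers and 0, 0 and 2 counts in saline livers. Every GalN/LPS library lay far above the other 10 libraries, in which the gene was close to the limit of detection. Nr4a3 counts summed to 16 in pretreated, 284 in GalN/LPS, 2 in dmPGE2 and 2 in saline livers. The ratio of GalN/LPS over saline, per TMM-scaled library size, was 164 with a counting interval of 45.0 to 1360 (95%, exact), which covers counting error only. The fitted change was 7.06 ± 0.67, adjusted p = 3.17e-07. Pretreated over GalN/LPS had a count ratio of 0.0598 (0.0337 to 0.0989) and a fitted change of -4.00 ± 0.47, adjusted p = 1.76e-05. Only the GalN/LPS libraries had at least 10 counts, the filter's minimum, so Nr4a3 was tested because of the group where it was high. Its p-values are thus no independent support for the rise or the fall. Nr4a2 counts summed to 35 in pretreated, 107 in GalN/LPS, 24 in dmPGE2 and 9 in saline livers, with 1.03, 0.410, 0.667 and 0.677 CPM in pretreated livers, 1.38, 2.21 and 2.36 CPM in GalN/LPS livers, 0.525, 0.174 and 0.295 CPM in dmPGE2 livers and 0.275, 0.149 and 0 CPM in saline livers. The pretreated libraries lay above all saline ones and overlapped the dmPGE2 ones. It changed by 3.73 ± 0.63 (adjusted p = 0.000114) with GalN/LPS and by -1.51 ± 0.49 (adjusted p = 0.0176) with pretreatment, a call that was lost without GalN/LPS library 3 (-1.36). For all 3 genes the pretreated livers stayed above saline, at 3.39 ± 0.33, 2.22 ± 0.66 and 3.06 ± 0.89 for Nr4a1, Nr4a2 and Nr4a3. With library totals Nr4a2 gave 1.54 and was not called. The Nr4a3 value set 16 counts against 2, a count ratio of 9.83 (2.31 to 88.1). It ran from 2.53 to 5.53 when single libraries were left out. The neutrophil, Kupffer cell and endothelial marker sums given above were also highest in GalN/LPS and next in pretreated livers. Their part in the NR4A values was not tested.

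**Figure D4:**
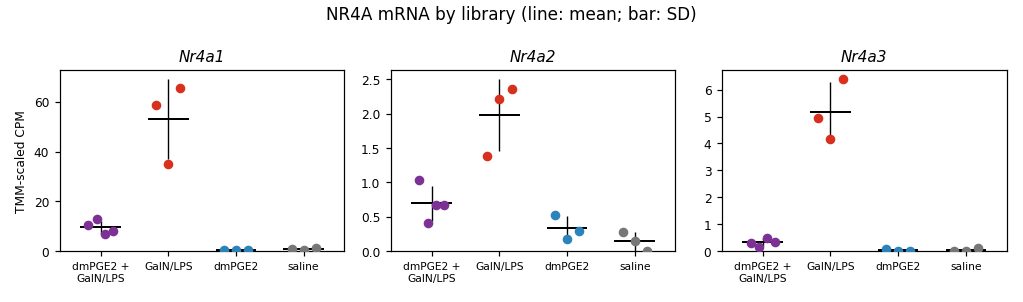
TMM-scaled CPM of Nr4a1, Nr4a2 and Nr4a3 in each library, by group, with mean and SD. The 3 GalN/LPS libraries are above the 4 pretreated libraries for each gene. The dmPGE2 and saline libraries are near the axis for Nr4a1 and Nr4a3. For Nr4a2 the dmPGE2 libraries reach 0.525 CPM and overlap the pretreated ones.

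The NR4A promoters were examined because these genes moved together. The bases before the RefSeq start site (RefSeq, GRCm38.p6, sense strand 5′ to 3′) are printed with capitals marking TGACG, the half-site bound by CREB-family factors, or its complement CGTCA:
Nr4a1, chr15:101266596-101266845, + strand: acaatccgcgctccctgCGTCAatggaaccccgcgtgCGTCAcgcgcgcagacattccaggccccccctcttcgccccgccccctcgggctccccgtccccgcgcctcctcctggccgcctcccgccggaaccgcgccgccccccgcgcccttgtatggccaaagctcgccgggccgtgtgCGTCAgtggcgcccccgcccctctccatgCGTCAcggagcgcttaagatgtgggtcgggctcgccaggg
Nr4a2, chr2:57124004-57124253, - strand: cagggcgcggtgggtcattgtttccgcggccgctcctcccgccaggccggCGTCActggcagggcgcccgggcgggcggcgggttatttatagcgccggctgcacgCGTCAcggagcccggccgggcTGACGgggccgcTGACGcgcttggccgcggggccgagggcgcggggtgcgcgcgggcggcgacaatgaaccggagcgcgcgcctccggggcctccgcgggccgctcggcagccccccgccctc
Nr4a3, chr4:48045055-48045152, + strand: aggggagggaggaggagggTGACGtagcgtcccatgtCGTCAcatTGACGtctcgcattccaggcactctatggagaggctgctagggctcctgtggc
In the 250 bases before each start the half-site occurs 4 times in each of the 3 genes, the first letter lying 233, 213, 69 and 40 bases before the start in Nr4a1, 200, 144, 123 and 111 in Nr4a2, and 231, 213, 205 and 147 in Nr4a3. For Nr4a3 the 98 bases before the first exon of GENCODE M21 are shown, with 3 of its 4 half-sites; the other lies in the 152 bases that this annotation places in an exon. The Nr4a1 window lies within an intron of a longer annotated transcript. Searched on both strands, TGACG is in 17.8% of the 32851 promoters of 250 bases, and at least 4 copies are in 45 of them (0.137%). The cut of 4 is the number found in the 3 NR4A windows, which are among the 45, so this share is no test. The 30 nuclear receptor genes with a promoter in the table (all but Thra) have 44 promoters. At least 1 copy is in 10 of these 44, which belong to 10 genes. The full site TGACGTCA, which contains the half-site, is in 1.55% of promoters and in none of these genes. AGGTCA, the half-site bound by many nuclear receptors, is in 14.0% of promoters. Among the 44 receptor promoters it is in 8, which belong to 7 of the 30 genes. These matches are letters in a window and show no binding.

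Between pretreated and saline livers 17 of the 30 genes were lower and 6 higher; over all genes 30.2% were lower and 34.8% higher, with a family median of -0.85 against 0.14 over all genes. The higher genes were the 3 NR4A genes, Rarg, Thra and Nr1h3, and with library totals 2 genes were higher and 19 lower. Over all 14280 genes, library totals called 1683 higher and 6803 lower. Nr0b2, Rxrg, Rxra and Nr3c2 fell most, at -3.37 ± 0.39, -2.80 ± 0.25, -2.34 ± 0.17 and -2.31 ± 0.22. The comparison shares its saline libraries with GalN/LPS against saline, so the values of each are given side by side and no overlap of the calls is drawn.

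dmPGE2 alone gave no call: 0 of the 30 genes and 0 of 14280 genes passed the edgeR test in either direction (background 0% higher and 0% lower). At an unadjusted p under 0.05 there were 1990 genes (13.9%), among them 6 of the 30, and the smallest adjusted p of any gene was 0.0628. DESeq2 called 137 genes higher and 140 lower over all genes, and of the family called Ppara and Nr2c2 higher and Nr0b2 lower. Without the filter on low counts edgeR called 290 genes higher and 171 lower, with Nr1i2 lower in addition.

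In FPKM, Ppara had 25.8, 20.3 and 22.0 in dmPGE2 livers, against 13.5, 7.73 and 10.8 in saline livers, and no dmPGE2 library overlapped a saline one (1.09 ± 0.21, adjusted p = 0.0716). Nr2c2 had 0.371, 0.437 and 0.449 FPKM in dmPGE2 livers and 0.172, 0.136 and 0.220 FPKM in saline livers, again without overlap (1.25 ± 0.25, adjusted p = 0.0716). Nr0b2 had 4.16, 5.15 and 5.16 FPKM in dmPGE2 livers, against 5.78, 17.2 and 23.4 FPKM in saline livers, with -1.68 ± 0.37, adjusted p = 0.0832. The dmPGE2 values of Nr0b2 lay close together and below all of the saline values, which were the most variable of the group. Nr1i2 gave -0.60 ± 0.18, adjusted p = 0.17.

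**Figure D5:**
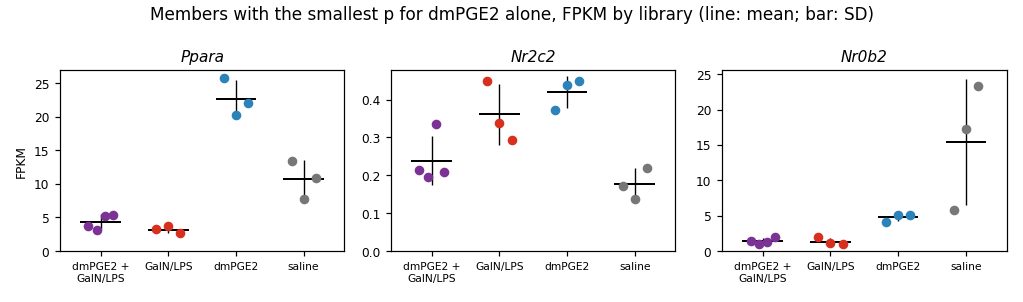
FPKM of Ppara, Nr2c2 and Nr0b2 in each library, by group, with mean and SD. Each dmPGE2 library lies above each saline library for Ppara and Nr2c2, and below each for Nr0b2.

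The effect of dmPGE2 in GalN/LPS livers (pretreated against GalN/LPS) was set against its effect in uninjured livers (dmPGE2 against saline) in an interaction test. It called 4 of the 30 genes higher (13.3%) and 7 lower (23.3%), against 15.4% and 19.6% of all genes, so the shares were near the background. Nr0b2 (1.81 ± 0.59), Esr1 (1.27 ± 0.42), Nr1i2 (1.18 ± 0.25) and Nr1h4 (0.69 ± 0.18) were higher, with adjusted p of 0.0275, 0.0295, 0.00343 and 0.0111. Nr4a2, Nr2c2, Ppard, Rxrb, Rara, Rarg and Esrra were lower, from -2.74 in Nr4a2 to -0.68 in Esrra. The Nr4a2 value rests on 9 counts in saline and 24 in dmPGE2 livers. With no filter the Rarg call was lost (adjusted p = 0.0912). Nr4a1 and Nr4a3 were not called (adjusted p = 0.069 and 0.0958). Both were called lower with DESeq2, and Nr4a1 also with no filter and with library totals. The time after dmPGE2 may differ between the arms, as stated above. With library totals the 4 higher calls were lost and 15 genes were lower. Over all 14280 genes, library totals called 182 higher and 5209 lower. Leaving out single libraries gave 2 to 4 higher and 3 to 9 lower, with 2 higher without saline library 3, GalN/LPS library 3 or dmPGE2 library 1, and 3 or 4 lower without GalN/LPS library 1 or 3 or dmPGE2 library 1 or 3.

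Genes that act with or under these receptors were counted from lists. For each count with TMM the shares over all genes were 25.6% lower and 27.4% higher with GalN/LPS. With pretreatment they were 30.1% lower and 24.4% higher. For the pretreatment counts with library totals, all genes gave 616 higher and 6804 lower of 14280. Of 9 tested superfamily genes outside the 31, 6 were lower and 0 higher in GalN/LPS than in saline livers, and with pretreatment 3 fell and 2 rose relative to GalN/LPS alone. Nr5a2 (LRH-1, an activator of bile acid genes) changed by -1.52 ± 0.17 and -0.97 ± 0.17, and the glucocorticoid receptor Nr3c1 by -0.76 ± 0.14 and -1.0 ± 0.14, in GalN/LPS against saline and pretreated against GalN/LPS livers. Hnf4a gave 0.29 ± 0.19, not called, and 0.63 ± 0.18. Of 24 coactivators and corepressors, 8 were lower and 3 higher in GalN/LPS livers, and 10 were lower (41.7%) and 7 higher (29.2%) with pretreatment, not far from the shares over all genes. Ncoa7 gave 4.70 ± 0.41 and -2.49 ± 0.32, and Ppargc1a (PGC-1 alpha) -1.71 ± 0.25 and 0.83 ± 0.25. With library totals pretreatment raised none of either list and lowered 4 of the 9 and 13 of the 24.

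Targets of the lipid and bile acid receptors rose with pretreatment in several lists with TMM scaling, and in fewer with library totals. The hepatocyte markers rose with them, 6 of 7 with TMM and 2 of 7 with library totals, and their part in these counts was not tested. Of 10 tested FXR targets, which include Nr0b2 itself, 8 rose and 0 fell with pretreatment, with a list median of 0.85; 4 were lower and 1 higher in GalN/LPS than in saline livers. Cyp7a1, the rate-limiting enzyme of bile acid synthesis, changed by -3.83 ± 0.38, adjusted p = 5.33e-07 and by 1.99 ± 0.35, adjusted p = 0.000296, and Cyp8b1, an enzyme of the same pathway, by -2.74 ± 0.33 and 1.02 ± 0.30. In the textbook pathway SHP represses both enzymes, whereas FXR induces Nr0b2. The FXR list thus mixes induced and repressed genes, and its counts and median give no direction of FXR activity. Of 11 LXR targets 4 were lower and 4 higher in GalN/LPS, and 4 higher and 2 lower with pretreatment; Abcg1, a cholesterol exporter of macrophages, changed by 2.74 ± 0.31 and -1.12 ± 0.26. With library totals the FXR targets gave 5 higher and 0 lower with pretreatment, and the LXR targets 2 higher and 3 lower.

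Of 13 PXR and CAR targets 7 were higher and 2 lower in GalN/LPS, and 10 higher and 0 lower with pretreatment. With library totals the pretreatment counts were 2 higher and 1 lower. The GalN/LPS counts with library totals were 3 higher and 2 lower, against 3067 higher and 4277 lower of all 14280 genes. Cyp2b10, the classic CAR target, changed by 1.42 ± 0.47, adjusted p = 0.0191 with GalN/LPS and 2.39 ± 0.44, adjusted p = 0.000433 with pretreatment, and Alas1, the first enzyme of heme synthesis, by -3.40 ± 0.36, adjusted p = 9.9e-07 with GalN/LPS. Of 17 PPAR alpha targets 5 were lower (29.4%, near the share over all genes) and 2 higher in GalN/LPS, and 7 higher (41.2%) and 4 lower (23.5%) with pretreatment (1 and 4 with library totals, which called 6804 of 14280 genes lower). Pdk4 changed by 3.33 ± 0.37 and -1.69 ± 0.31, Cpt1a by -1.22 ± 0.19 and 0.52 ± 0.18. Of 9 retinoic acid genes 3 were higher and 1 lower in GalN/LPS, and 5 higher and 0 lower with pretreatment (3 and 2 with library totals); Cyp26a1, which degrades retinoic acid, changed by 1.49 ± 0.41 and 1.17 ± 0.37. Of 8 thyroid hormone genes 2 were higher and 2 lower in GalN/LPS, and 5 higher and 1 lower with pretreatment (1 and 1 with library totals); Thrsp, a lipogenic target, changed by -0.93 ± 0.29 and 1.25 ± 0.28. The lists were chosen with results of these data known, and the counts describe them, with no test that compares them with other genes.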

How the data were processed

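The deposited tables gave raw read counts per Ensembl gene and FPKM for the same 13 libraries, made by the authors; the counts were checked to be whole numbers. The submitters' processing notes name HISAT2 and GRCm38/mm10, and no source used here gives the counter, annotation release or use of strand. Table columns named ALF were taken as GalN/LPS by elimination, the series text speaking of AILI mice and the sample labels of D-galactosamine with lipopolysaccharide. No source used here gives the denominator behind the deposited FPKM.

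All 13 libraries were fitted together in edgeR 4.0.16 (R 4.3.3) with TMM, the group-wise filter on low counts (minimum count 10) and group as the only term; the quasi-likelihood F test was two-sided with Benjamini-Hochberg adjustment at 0.05 over 14280 genes, which held 99.9% of counts. Each SE was the log2 fold change divided by the root of its F value. The fit was run on simulated counts in which few genes changed, evenly up and down, so this run could not test the choice of scaling. Alternatives were library totals, DESeq2 1.42.0, no filter, log2(FPKM + 0.1) and log2(FPKM + 1) in limma 3.58.1, a replicate block, only the groups compared, and each library left out. The members and lists were chosen with earlier results of these data known. Genes named were all 31 members, and of each other list up to 4 with the smallest adjusted p in each of GalN/LPS against saline and pretreated against GalN/LPS, plus Ppargc1a, Cyp7a1, Hnf4a, Nr5a2 and Alb; only some of the list genes are reported, a choice made with their values in view. A gene that this rule names is withheld and not reported here. Promoter sequences are from RefSeq tables of GRCm38.p6, with exons from GENCODE M21. Counting intervals (95%) cover counting error only.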

Additional observations from a re-analysis of the deposited data

Results flagged for a closer look

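In pretreated livers, library 3 stood apart for Nr2c2 at 5.17 CPM against 3.07 to 3.25 CPM in the others; the gap was 0.914 of the range of the 4 libraries. All 31 members were screened for such a gap and only Nr2c2 was marked, while chance marks about 1 in 20 such groups. Nr2c2 overlaps Mrps25 on the opposite strand.

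For 11 of 30 receptors the effect of dmPGE2 differed between GalN/LPS livers and uninjured livers by the edgeR interaction test (4 higher and 7 lower, 13.3% and 23.3%), near the shares over all genes of 15.4% and 19.6%. The difference in log2 fold change was higher for Nr0b2, 1.81 ± 0.59 (0.14 ± 0.46 in GalN/LPS livers, -1.68 ± 0.37 in uninjured livers, adjusted p = 0.0275), Esr1, 1.27 ± 0.42 (0.97 ± 0.31 in GalN/LPS livers, -0.31 ± 0.29 in uninjured livers, adjusted p = 0.0295), Nr1i2, 1.18 ± 0.25 (0.58 ± 0.17 in GalN/LPS livers, -0.60 ± 0.18 in uninjured livers, adjusted p = 0.00343), and Nr1h4, 0.69 ± 0.18 (0.67 ± 0.13 in GalN/LPS livers, -0.02 ± 0.13 in uninjured livers, adjusted p = 0.0111). It was lower for Nr4a2, -2.74 ± 0.86 (-1.51 ± 0.49 in GalN/LPS livers, 1.23 ± 0.71 in uninjured livers, adjusted p = 0.024), Nr2c2, -1.79 ± 0.35 (-0.54 ± 0.24 in GalN/LPS livers, 1.25 ± 0.25 in uninjured livers, adjusted p = 0.00221), and Ppard, -1.21 ± 0.44 (-1.56 ± 0.31 in GalN/LPS livers, -0.36 ± 0.32 in uninjured livers, adjusted p = 0.0444). It was also lower for Rxrb, -1.04 ± 0.27 (-0.84 ± 0.19 in GalN/LPS livers, 0.19 ± 0.19 in uninjured livers, adjusted p = 0.00912), Rara, -0.89 ± 0.21 (-0.97 ± 0.15 in GalN/LPS livers, -0.08 ± 0.15 in uninjured livers, adjusted p = 0.00672), Rarg, -0.79 ± 0.30 (-0.93 ± 0.19 in GalN/LPS livers, -0.14 ± 0.23 in uninjured livers, adjusted p = 0.049), and Esrra, -0.68 ± 0.22 (-0.63 ± 0.15 in GalN/LPS livers, 0.04 ± 0.15 in uninjured livers, adjusted p = 0.0247). With edgeR no effect of dmPGE2 in uninjured livers was called for these genes by itself, while DESeq2 called Nr2c2 and Nr0b2, and edgeR with no filter also Nr1i2. The interaction calls of Esr1, Nr0b2, Esrra, Ppard and Rarg were lost when any of several single libraries was left out, and that of Nr4a2 without GalN/LPS library 3 or dmPGE2 library 1. The 4 higher differences were not called with library totals, and the time after dmPGE2 may differ between the arms.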

How the results depend on the processing

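With library totals in place of TMM, the members higher were 0 in pretreated against GalN/LPS, 2 in pretreated against saline and 0 in the interaction, with 15 lower in the interaction. Over all genes library totals gave 616 higher and 6804 lower in pretreated against GalN/LPS, 1683 and 6803 in pretreated against saline, and 182 and 5209 in the interaction. Nr1h3 reversed with library totals to -0.49 in pretreated against GalN/LPS and -0.30 in pretreated against saline, and Nr1i2 to -0.65 in pretreated against saline; the cause was not tested. With log2(FPKM + 1), 2 members were higher in pretreated against GalN/LPS, and 12 genes were higher and 4 lower for dmPGE2 against saline. For dmPGE2 against saline, no filter gave 2 members higher and 2 lower (290 and 171 of all genes), and DESeq2 gave 2 higher and 1 lower (137 and 140). A further 112 values called in neither setting changed sign.

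The labels do not say whether library numbers pair samples. Deviations from group means of same-numbered libraries correlated at -0.315 to 0.0873 over 18 pairs, with 0 pairs over 0.1. Of 13 libraries, 3 correlated best with their own number. These values gave no sign of pairing, but with groups of 3 or 4 libraries they cannot exclude it. With a replicate block the interaction called 2 members higher and 4 lower, without Esr1, Nr0b2, Esrra, Ppard and Rarg, and changed no other count of members by over 1.5 times.

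Leaving out each of the 13 libraries in turn, members higher and lower numbered 6 to 8 and 14 to 16 for GalN/LPS against saline, 3 to 7 and 9 to 11 for pretreated against GalN/LPS, 5 to 7 and 16 to 17 for pretreated against saline, 0 to 0 and 0 to 1 for dmPGE2 against saline, and 2 to 4 and 3 to 9 for the interaction. All genes higher and lower numbered 0 to 13 and 0 to 14 for dmPGE2 against saline, the highest without pretreated library 1. Without saline library 1, Nr0b2 was called lower for dmPGE2 against saline (-2.07). For the other comparisons all genes numbered 3470 to 3980 and 3204 to 3763 (GalN/LPS against saline), 2596 to 3560 and 3398 to 4284 (pretreated against GalN/LPS), 4468 to 5032 and 3964 to 4346 (pretreated against saline), and 1480 to 2674 and 2006 to 3027 (interaction). Vdr had too few counts to be tested, and Nr4a2, Nr4a3, Rarb and Nr2f1 had under 10 counts in 6 to 10 libraries.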
